A study of Mus musculus with 2 samples.

Results

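The genes described here encode albumin and other abundant plasma carriers that hepatocytes secrete: Alb, Ttr, Rbp4, Gc, Ahsg, Fetub, Afm, Ambp and Azgp1. They were chosen by name, as probe sets whose platform annotation gives 1 of these 9 symbols. Of the 22626 probe sets that are not controls, 11 matched 8 of the 9 genes, among 12393 named genes in all. No probe set was annotated to Gc, the vitamin D-binding protein, and that gene is not analysed here. All 11 probe sets lay above the floor that separates measured from low signals on both arrays (35.6 intensity units), the dimmest signal by 17.7-fold.

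Liver RNA came from apolipoprotein E-deficient mice on a high-fat diet, so both groups share the gene deletion and the high fat content. One Affymetrix array, titled orujo, represents mice given the unsaponifiable fraction of olive oil in that diet, and another, titled olive, represents mice given olive oil. The unsaponifiable fraction holds the sterols, hydrocarbons, alcohols and other minor components of the oil that are not fatty acid esters. The number, sex and age of the animals, any pooling of RNA and the time of day are not stated in the labels. With 1 array per diet no ratio has an error between animals and no test of the diets was possible.

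Hepatocytes make most plasma proteins and release them through the secretory pathway. In an acute phase response, inflammatory cytokines raise the transcription of some of these genes (the positive acute phase proteins) and lower that of others, among them albumin, transthyretin, retinol-binding protein and, in humans, fetuin-A, which are therefore called negative acute phase proteins. The transcripts of this group are among the most abundant of the liver, and an array measures their RNA and not the protein in plasma.

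The carriers differed little between the arrays. None of the 11 probe sets (0 of 11) differed 2-fold, beside 2.41% of the 10462 probe sets measured on both arrays. Nor did any pass 1.5-fold (0 of 11), which 11.5% of all measured probe sets did. For so few probe sets, counts of 0 lie near these shares and do not set the carriers apart. In addition, 7 of the 11 lay above 4000 intensity units on both arrays, where a 2-fold ratio has almost no room. Signal was higher on the orujo array for 5 probe sets and lower for 6, and of all measured probe sets 48.3% were higher. Over the 8 genes, each read from its brightest probe set, the median log2 ratio (orujo minus olive) was 0.09, and over all 6640 measured genes it was −0.02. In bulk tissue, fewer cells of a type and less RNA per cell cannot be told apart. The largest ratios were those of the fetuin genes Fetub and Ahsg, and the lowest was that of the brightest Ttr probe set.

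**Figure D1:**
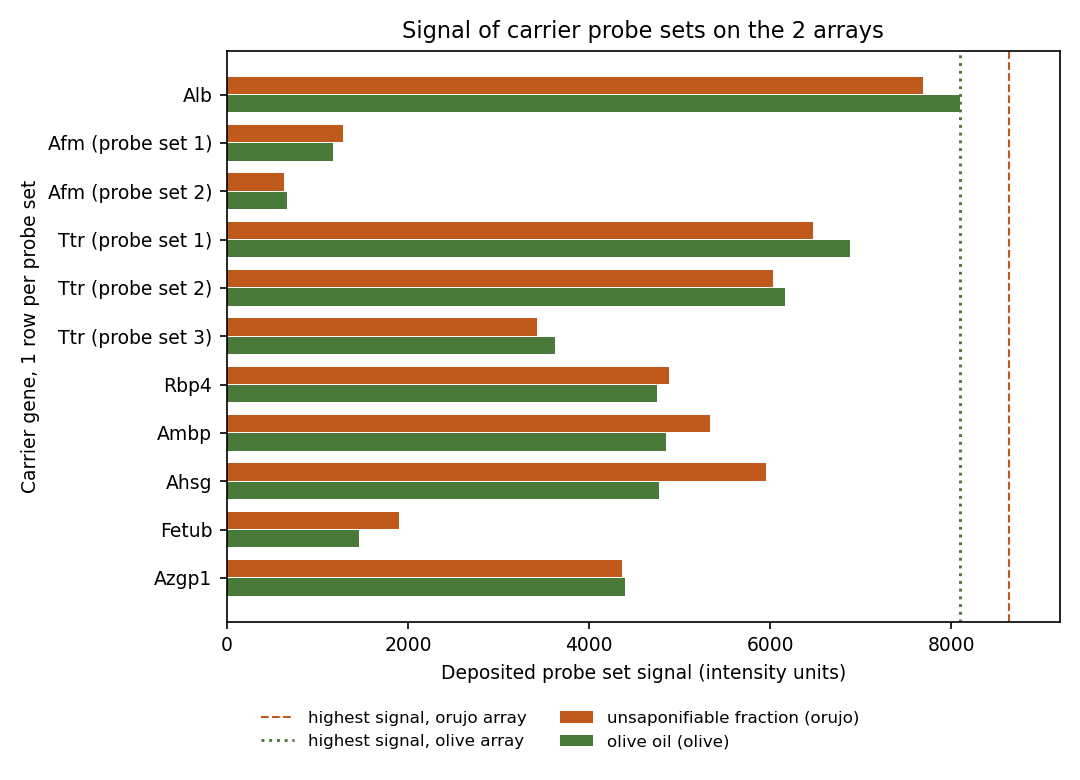
Deposited signal of each carrier probe set on a linear axis from 0, with the orujo array above the olive array in each row and no error bars because there is 1 array per diet. The vertical lines mark the highest signal of each array, 8634.7 on orujo and 8102.7 on olive; Alb itself is the highest on the olive array, and the widest gap in intensity units is that of Ahsg.

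Alb and Afm belong to the albumin family, with Gc and alpha-fetoprotein (Afp). Albumin carries fatty acids, bilirubin and hormones and holds the colloid osmotic pressure of plasma, and afamin, the product of Afm, binds vitamin E and secreted Wnt proteins. In the RefSeq gene order Afp is the only gene between Alb and Afm on chromosome 5. The 250 bases before the RefSeq start of both genes are shown because these neighbours share a short motif in front of the gene: capitals mark GTTAAT on either strand, the core of the site bound by the liver transcription factor HNF1, and TATAAA, the TATA box.
Alb (GRCm38.p6, chr5:90460620-90460869, plus strand): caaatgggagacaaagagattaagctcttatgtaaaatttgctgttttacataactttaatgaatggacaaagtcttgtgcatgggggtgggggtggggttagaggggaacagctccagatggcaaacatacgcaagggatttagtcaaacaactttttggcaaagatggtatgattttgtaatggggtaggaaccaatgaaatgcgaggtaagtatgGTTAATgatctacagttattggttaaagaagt
Afm (GRCm38.p6, chr5:90518699-90518948, plus strand): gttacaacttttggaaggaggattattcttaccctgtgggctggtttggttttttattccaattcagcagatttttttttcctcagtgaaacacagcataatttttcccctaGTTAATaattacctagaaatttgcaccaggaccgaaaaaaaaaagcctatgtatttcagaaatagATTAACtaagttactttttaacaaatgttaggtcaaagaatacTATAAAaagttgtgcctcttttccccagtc
GTTAAT occurred 1 time in the Alb window and 2 times in the Afm window, and on either strand in 6.47% of 32536 windows of this length before RefSeq starts. TATAAA occurred 1 time in the Afm window and not in these letters of the Alb window, against 12.3% of all windows. Such matches describe the letters only.

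Alb had a signal of 7692.5 on the orujo array, against 8102.7 on the olive array. The olive signal was the highest of any non-control probe set on that array, and the orujo signal reached 89.1% of that array's maximum, which belonged to Apoa1. The log2 ratio was −0.08, a signal 1.05-fold lower on the orujo array, and 81.9% of measured probe sets lay at least as far from 0. The direction of this small difference held in all 9 alternative settings, between −0.39 and −0.06. Several of these, such as other floors or dropping probe sets of shared sequence, could not turn its sign.

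Afm was read by 2 probe sets of lower signal. The first had 1280.4 on the orujo array and 1168.6 on the olive array, a log2 ratio of 0.13, and the second had 630.3 on orujo and 659.4 on olive, a log2 ratio of −0.07. These probe sets of 1 gene thus had opposite signs and differed by less than the SD between probe sets of a gene over all 2057 genes with 2 measured (0.43), and no direction can be given for Afm. Afp, the fetal member of the family, was below the floor on both arrays, at 1.0 on orujo and 2.8 on olive.

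Ttr and Rbp4 encode the proteins that circulate together as the carrier of vitamin A: retinol-binding protein takes up retinol in the hepatocyte, and transthyretin, which also carries thyroxine, binds it and keeps it from filtration in the kidney. The brightest Ttr probe set had 6470.1 on the orujo array, against 6883.4 on the olive array. The second had 6031.5 on orujo and 6162.1 on olive. The third had 3426.6 on orujo and 3619.3 on olive.

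All 3 Ttr probe sets were lower on the orujo array, by log2 ratios of −0.09, −0.03 and −0.08, with a mean of −0.07 ± 0.03 (SD over 3 probe sets, which share RNA and hybridisation and are not replicates). Their suffixes mark sequence that can be shared with other transcripts. Rbp4 had 4886.0 on the orujo array and 4756.1 on the olive array, a log2 ratio of 0.04, whose sign turned under quantile normalization (−0.13), loess (−0.03) and centring on the hybridization controls, added transcripts of bacteria and phage (−0.27). At this size both partners of the complex had nearly equal signal on the arrays.

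Ambp encodes a precursor that is cut into α-1-microglobulin, a heme-binding lipocalin like retinol-binding protein, and bikunin, the light chain of the inter-α-trypsin inhibitors. It had 5333.6 on the orujo array, against 4848.8 on the olive array, a log2 ratio of 0.14. Under quantile normalization its ratio was −0.06, and centred on the hybridization controls −0.17. The genes for the heavy chains that bikunin joins had higher ratios: Itih1 was at 0.66 and Itih2 at 0.31, and Itih3 and the related Itih4, which were placed on the positive acute phase list, at 0.73 and 0.98. Apom, another lipocalin that carries sphingosine 1-phosphate on lipoproteins, was at 0.72, with 0.14 in its other probe set.

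The fetuins, encoded by Ahsg and Fetub, belong to the cystatin superfamily. Fetuin-A, from Ahsg, binds calcium phosphate and prevents its precipitation in blood, and it inhibits the insulin receptor in cell assays; fetuin-B, from Fetub, inhibits the zona pellucida protease ovastacin and is needed for fertility in female mice. No protein-coding gene lies between them on chromosome 16 in the RefSeq order, and Hrg, which encodes histidine-rich glycoprotein of the same superfamily, follows Fetub directly. The windows before their starts are shown because these carriers had the highest ratios; for Fetub it is the first of 2 listed starts. Capitals again mark TATAAA, and GTTAAT would be marked but is in neither.
Ahsg (GRCm38.p6, chr16:22891765-22892014, plus strand): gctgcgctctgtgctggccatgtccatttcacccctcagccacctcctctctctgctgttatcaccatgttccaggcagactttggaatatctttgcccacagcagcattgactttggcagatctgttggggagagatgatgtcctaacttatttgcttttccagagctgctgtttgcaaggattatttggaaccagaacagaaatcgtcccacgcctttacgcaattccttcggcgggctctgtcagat
Fetub (GRCm38.p6, chr16:22918132-22918381, plus strand): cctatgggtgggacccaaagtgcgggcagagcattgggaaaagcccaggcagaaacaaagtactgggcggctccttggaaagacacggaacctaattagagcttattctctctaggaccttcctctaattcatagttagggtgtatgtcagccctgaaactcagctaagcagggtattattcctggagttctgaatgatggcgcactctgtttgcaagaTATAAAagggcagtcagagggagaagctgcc
TATAAA occurred in the Fetub window and not in that of Ahsg. The C/EBP motif TTNNGNAA, counted on both strands, not marked and free to overlap the letters in capitals, occurred 2 times for Ahsg and 1 time for Fetub, and in 36.8% of all windows.

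Fetub had a signal of 1906.1 on the orujo array, against 1456.5 on the olive array, 1.31-fold higher (log2 ratio 0.39). Ahsg had 5957.8 on the orujo array, against 4778.4 on the olive array, 1.247-fold higher (log2 ratio 0.32). Their 2 ratios were the only ones among the carriers past 1.2-fold. Differences of at least this size were common: 27.1% of all measured probe sets lay as far from 0 as Fetub and 35.8% as far as Ahsg.

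Both fetuin probe sets have a suffix that marks sequence shared between transcripts, and neither gene has another probe set here. The sign held in the 8 alternatives that could be run on them, though other floors and an added floor could not turn it. The range was 0.08 to 0.40 for Fetub and 0.01 to 0.33 for Ahsg, the lowest values being those centred on the hybridization controls. On the same chromosome, Hrg was at 0.16 and Kng1, which encodes kininogen, a further cystatin-type protein, at 0.55 with 0.78 in its second probe set.

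Azgp1 encodes zinc-α2-glycoprotein, a secreted protein with the fold of MHC class I that mobilises lipid from adipose tissue in mice. It had 4364.1 on the orujo array and 4396.9 on the olive array, a log2 ratio of −0.01, which became 0.0038 when ratios were centred on the median. Of all measured probe sets 97.5% lay farther from 0 or as far, so of the carriers this gene was the closest to equal. Adipocyte markers with a probe set, Adipoq, Lep and Cidec, were below the floor on both arrays (0 of 3 measured).

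Technical spread at this brightness was taken from genes read by different probe sets. Among 69 genes with 2 probe sets above 1000 intensity units on both arrays, the log2 ratios of a gene's probe sets differed with an SD of 0.30, equivalent to 0.21 for a single probe set. The ratios of Fetub and Ahsg exceeded 0.21 and those of the other 9 carrier probe sets did not. Many unchanged probe sets would also exceed an SD, and these were the largest carrier ratios, so neither is set apart from technical spread. This spread holds no variation between animals, whose size is unknown here.

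Because 7 of the 11 carrier probe sets passed 4000 intensity units on 1 array at least, the upper end of the scale was examined for a ceiling. A probe that saturates gives a ratio nearer to 1 than its RNA, and scanner flags were not used here. Within 10 percent of the array maximum lay 4 probe sets on the orujo array and 5 on the olive array. The deposited values are summaries of whole probe sets, so these counts cannot show whether single probes saturated. Among the 55 probe sets above 4000 on both arrays, 7 of them carriers, log2 ratios ran from −0.22 to 0.45 with an SD of 0.17. Of these 0 passed 2-fold (0.0%), and the SD over all measured probe sets was 0.43. With array maxima of 8634.7 on orujo and 8102.7 on olive, signals above 4000 on both leave almost no room for a 2-fold ratio. That count and the narrow SD are thus limited by the selection itself and cannot show a ceiling. In the brightest of 10 equal bins of measured probe sets, which starts far lower, at a mean signal of 645.1, the SD was 0.46 and 4.02% passed 2-fold.

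Given the array maxima, a bright probe set past 2-fold must nearly always lie above 4000 on 1 array and below it on the other. Of 95 probe sets above 4000 on either array, 2-fold was passed upward on the orujo array by 11 and downward by 2 (13.7% in all). None of these lay above 4000 on both, so each entered only through the array on which it was brighter. That selection raises the share, which cannot be set against the share of all probe sets. One Saa1 probe set had 7508.6 on the orujo array, against 1259.9 on the olive array, 5.96-fold higher. When a signal above 1000 was required on both arrays, 2.69% of 595 probe sets passed 2-fold.

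Genes bright on the olive array had smaller ratios. Of the measured positive acute phase genes, the 8 with an olive signal above 3000 had log2 ratios from 0.14 to 0.98 and 0 of 8 passed 2-fold, while 10 of the 16 with a lower olive signal did. This limit was chosen after the values were seen, and the olive signal is itself part of the ratio. Alb, the 3 Ttr probe sets, Rbp4, Ambp, Ahsg and Azgp1 had olive signals above that limit. Afm and Fetub lay below it, at 1906.1 or less on either array, and their ratios also stayed between −0.07 and 0.39. The part of saturation in the ratios of the bright carriers was not tested.

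**Figure D2:**
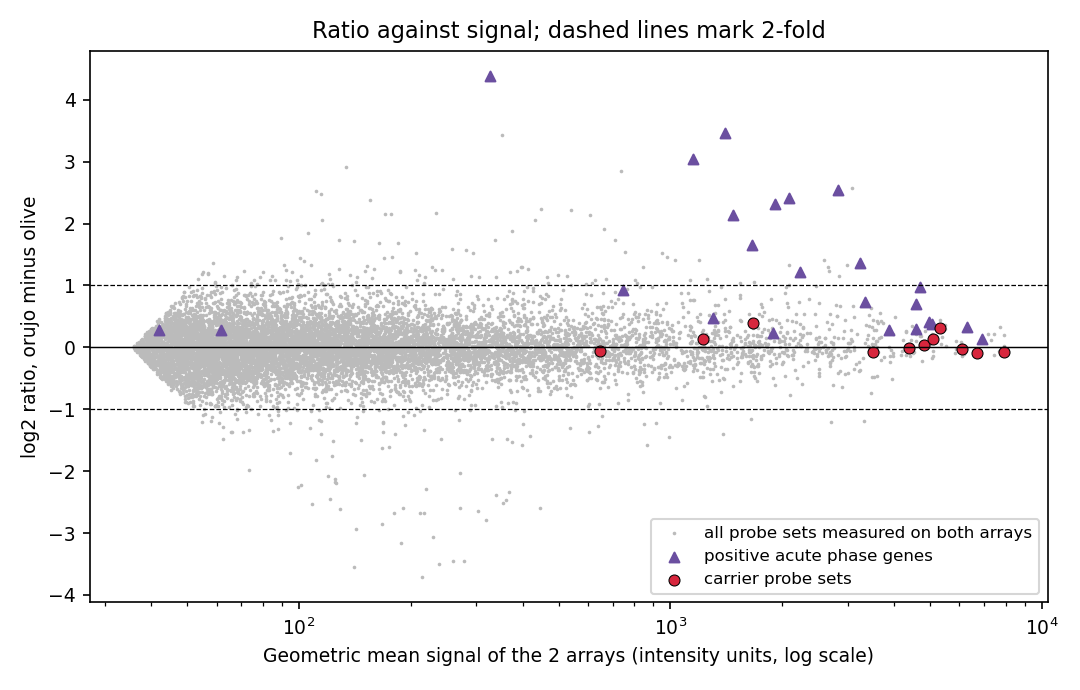
The log2 ratio (orujo minus olive) of each of the 10462 measured probe sets against the geometric mean of its signals on a log axis, with carrier probe sets as red circles and positive acute phase genes as purple triangles; dashed lines mark 2-fold. The 11 carriers lie between −0.09 and 0.39, toward the bright end, and the acute phase gene with the largest ratio, Orm2, lies at a lower mean signal than any carrier.

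Positive acute phase genes, set beside the carriers because textbook accounts pair the groups, had higher signal on the orujo array. Of 25 with a probe set, 24 were measured. Ratios were above 0 in 24 of 24, beside 48.3% of all measured probe sets. Upward 10 passed 2-fold and downward 0, beside 1.33% and 0.979% of all measured genes. Their median log2 ratio was 0.83. Each gene was read from its brightest probe set, and Il1rn, at 0.28 there, had −0.45 in its other measured probe set. Saa1, at 1.36 there, had 2.58 in its other one, and Hamp, at 0.28, had 0.69. Orm2, an orosomucoid, had 1496.9 on the orujo array and 71.5 on the olive array. Others past 2-fold were Mt2 (11.1-fold), Lcn2 (8.24-fold), Mt1 (5.84-fold), Apcs (5.35-fold), Saa2 (5.002-fold), Orm1 (4.40-fold), Serpina3n (3.16-fold), Saa1 (2.57-fold) and Lrg1 (2.32-fold), and Hp, haptoglobin, had the lowest ratio at 0.14. The list was put together with earlier results of these arrays known, so its direction is no independent evidence.

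The carriers named as negative acute phase proteins in rodents or humans had small ratios from the deposited signals. Alb was at −0.08 and the brightest Ttr probe set at −0.09, and Rbp4 and Ahsg were at 0.04 and 0.32. Centred on the hybridization controls, Alb was at −0.39, Ttr at −0.40, Rbp4 at −0.27 and Ahsg at 0.01, beside a median of 0.52 over the positive acute phase genes. Whether the ranges of the lists differ between animals cannot be told from 1 array per diet.

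A list of 30 other plasma proteins of the liver served as a wider frame, of which 23 were measured. Their median log2 ratio was 0.20 (−0.11 when centred on the hybridization controls). From the deposited signals 18 were above 0 and 5 below, and of all measured probe sets 48.3% were above 0. In either direction 0 passed 2-fold, against 2.3% of all measured genes, and for so few genes that count is near the share. Apom was highest (0.72) and Mup3, a major urinary protein that binds pheromones, lowest (−0.50), and its probe set may also read its many near-identical relatives. Apoa1, the main protein of high-density lipoprotein, had 8485.5 on the orujo array and 7361.4 on the olive array (0.21). Serpina6, which carries corticosteroids, had 640.0 on orujo and 692.0 on olive (−0.11), and Pon1, the paraoxonase of high-density lipoprotein, was at −0.15. The median of the carriers was 0.09 from the deposited signals, but −0.09 under quantile normalization and 0.02 under loess, so its side of 0 depends on the scaling.

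**Figure D3:**
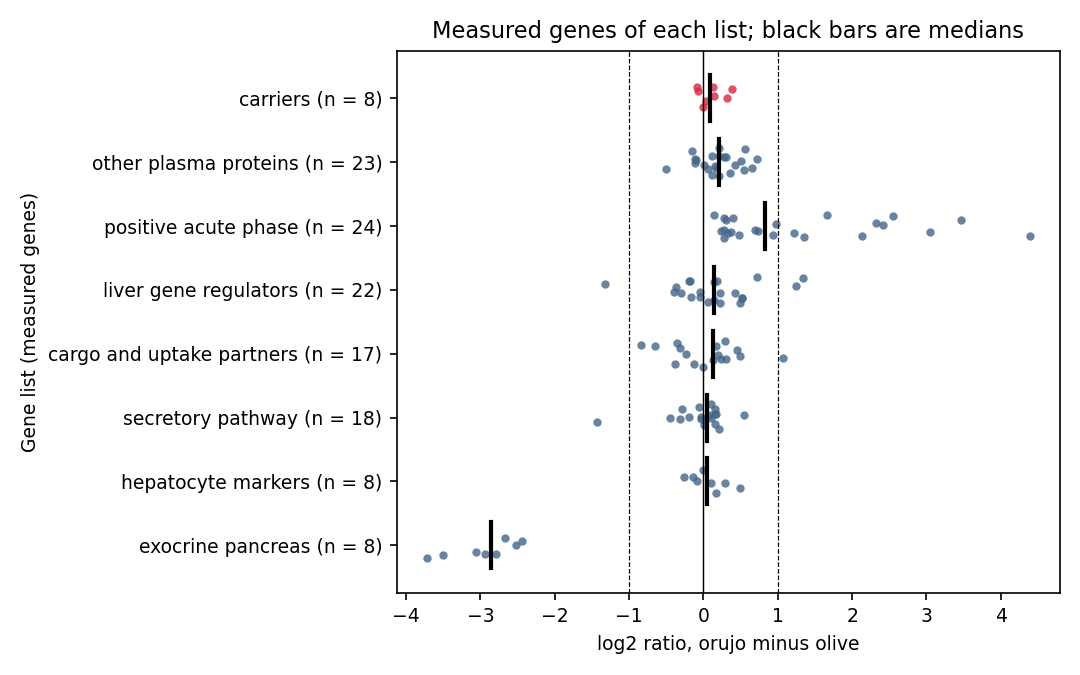
Each point is 1 measured gene, read from its brightest probe set, at its log2 ratio (orujo minus olive), with a black bar at the list median and dashed lines at 2-fold; vertical scatter within a row only separates points. The carriers span −0.09 to 0.39 around a median of 0.09, while the positive acute phase genes reach 4.39 and the exocrine pancreas genes −3.72.

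Transcription factors that act on these genes were examined next. HNF1, HNF4α, FOXA and C/EBP proteins occupy the albumin and transthyretin promoters, and DBP takes its name from the D site of the albumin promoter. Of 22 measured regulators, 13 had ratios above 0, beside 48.3% of all measured probe sets, with a median of 0.15. Upward 2 passed 2-fold and downward 1, beside 1.33% and 0.979% of all measured genes, and counts this small set the list apart in neither direction. Dbp, an output gene of the circadian clock, had 55.6 on the orujo array and 139.3 on the olive array, 2.51-fold lower, and its other probe set gave −1.34 on the log2 scale. Nfil3, a repressor that binds the same sites as DBP, had 171.5 on orujo and 67.9 on olive, 2.53-fold higher.

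The C/EBP genes had ratios of different sign, and Cebpg, at −0.37, had 0.65 in its other probe set. Cebpd, induced in acute phase responses, had 141.9 on the orujo array and 59.9 on the olive array, 2.37-fold higher. Cebpb was at 0.72, with 0.51 in its other probe set, and Cebpa, the form most tied to the differentiated hepatocyte, had 778.5 on orujo and 1023.3 on olive (−0.39). Hnf4a was at 0.18, with −0.04 to 0.48 in its other probe sets, and the FOXA genes lay between −0.04 for Foxa1 and 0.43 for Foxa2. Dbp, Nfil3 and Cebpd are dim: with the floor raised to the 75th percentile (101.2) each lay below it on 1 array and was no longer counted as measured. Stat3 was at 0.50 but between −0.63 and 0.25 in its other probe sets.

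Genes for the cargo of the carriers and for their uptake had no shared direction. Of 17 measured, 9 had ratios above 0 and 8 below, beside 48.3% of all measured probe sets above 0, with a median of 0.13. Cyp26a1, which breaks down retinoic acid and is a retinoic acid target, had 137.3 on the orujo array and 65.3 on the olive array, 2.10-fold higher. It was the only 1 of the 17 past 2-fold, beside 1.33% of all measured genes at least 2-fold higher. Retsat, a retinol saturase, had 2320.7 on orujo and 3631.0 on olive (−0.65, and −0.14 in its other probe set). Aldh1a1, which makes retinoic acid from retinal, was at −0.31. Thrb, the main thyroid hormone receptor of the liver, was lowest at −0.83, with 64.9 on orujo and 115.7 on olive, and Dio1, the hepatic deiodinase, was at 0.17. Fcgrt, a subunit of the receptor that spares albumin from degradation, was at 0.20. Stra6, the retinol-binding protein receptor of other tissues, was below the floor on both arrays, as were Lrat, Vdr, Lrp2, Cubn and Cyp24a1.

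Several facts of the whole series bear on these values. The labelled tissue was checked against 8 hepatocyte markers, and all 8 were above the floor on both arrays, with a median log2 ratio of 0.05 and values between Apob at −0.27 and Arg1 at 0.49. Exocrine pancreas markers, which do not belong in liver, summed to 666.6 on the orujo array and 5141.8 on the olive array. On orujo 8 of 8 measured were at least 2-fold lower, from Ctrb1 (−3.72) to Cel (−2.44), beside 0.979% of all measured genes. Since pancreatic islets also make transthyretin and retinol-binding protein, islet markers were read: 0 of 6 were measured on both arrays, Ins2 had 4.3 on orujo and 24.5 on olive, Gcg had 5.1 on orujo and 10.5 on olive, and Sst alone passed the floor, on the orujo array. The part of other cells in the carriers' ratios was not tested.

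RNA and hybridization controls differed between the arrays. The ratio of 3′ to 5′ signal for Gapdh was 0.885 on the orujo array and 0.906 on the olive array, and for Actb 1.15 on orujo and 1.36 on olive; for 18S ribosomal RNA it was 2.40 on orujo and 11.0 on olive. Apoe, the deleted gene, had 99.6 on the orujo array and 102.7 on the olive array in 1 probe set of unknown position relative to the deletion, which checks neither label. The 18 probe sets for 4 hybridization controls, bacterial and phage transcripts that the standard procedure adds to every hybridisation, were higher on the orujo array in 17 cases, with a median log2 ratio of 0.31 and a range of −0.03 to 0.74. The 4 cre probe sets had log2 ratios from −0.03 to 0.44, and the 2 of them closest to the carriers in signal, with 5320.9 and 4348.2 on orujo and 4946.2 and 3882.3 on olive, were at 0.11 and 0.16.

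If the arrays are centred on these controls instead of on their average signal, a choice made after the values were seen, every log2 ratio falls by 0.31. The carriers' median is then −0.23, with 2 of the 11 probe sets above 0, Ahsg and Fetub, and still 0 past 2-fold. The median of the positive acute phase list is then 0.52, with 18 of 24 above 0 and 9 at least 2-fold higher. That of the other plasma proteins is −0.11. The shares of all measured probe sets and genes were not computed under this centring, so these counts stand without them. The deposited scaling fixes the mean signal of each array, so ratios are relative to it, and whether equal amounts of control were added is not stated in the labels.

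**Figure D4:**
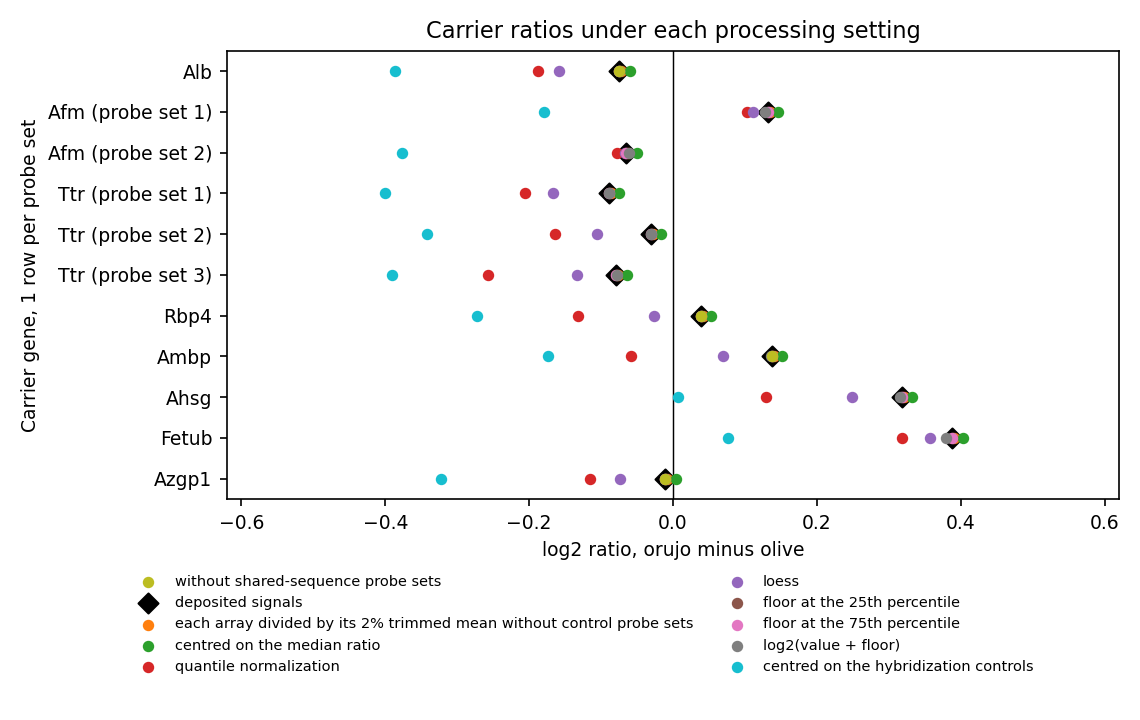
The log2 ratio (orujo minus olive) of each carrier probe set from the deposited signals (black diamonds) and under each alternative that could be run on it (coloured circles). Values range from −0.40 to 0.40, within 1.5-fold, and the lowest in each row is the one centred on the hybridization controls.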

How the data were processed

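The data are 2 Affymetrix arrays of mouse liver RNA, 1 per diet, with no replicates. Per the labels' protocols, the targets were made from about 8 µg of total RNA. The deposited file gives 1 intensity per probe set, on a linear scale. For the summarising software, detection calls and genome build, nothing is stated in the labels. From the values, the authors had scaled both arrays to a 2% trimmed mean of 100.05. Arrays have no read depth, and their number limits the precision.

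Signals were used as deposited. Of 22690 probe sets, 64 controls were set apart. The floor was the 50th percentile of the pooled signals (35.6). Lower values were raised to it before log2 was taken, and a feature above it on both arrays is called measured. Of 22626 probe sets the platform annotation gave 1 symbol to 20380, several to 691 and none to 1555; those with several or none were named for no gene. Entrez identifiers of 20351 matched the RefSeq gene table of GRCm38.p6, and 0 symbols changed. A gene of a list was read from the brightest of its probe sets by mean log2 value.

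No test was possible, so features were counted past 2-fold and lists described by counts and medians. The members, lists, limits and motifs were chosen with earlier results of these data known. The rule for naming genes took every member, Apoe, and of each other list the highest, the lowest and those past 2-fold; the other genes named were added after their values were seen, mostly for their relation to a carrier. Promoter sequences are RefSeq's (GRCm38.p6) and matched 8 of the 9 carrier genes; Ttr was not among them. The calculation was checked on simulated data. Python 3.11.15, numpy 2.4.6, pandas 2.3.3, scipy 1.17.1 and statsmodels 0.14.6 were used. Alternatives were other scalings and normalizations (trimmed mean, median, quantile, loess, span 0.4), lower and higher floors (25th and 75th percentile), a pseudocount equal to the floor, averaging the probe sets of a gene, dropping those of shared sequence, and other fold limits.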

Additional observations from a re-analysis of the deposited data

How the results depend on the processing

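Under every setting tried, 0 of 11 carrier probe sets passed 2-fold; with the limit lowered to 1.5-fold 0 passed, and at the lowest limit tried 1 passed (Fetub). Over 92 values of single probe sets under the alternatives, the largest absolute log2 ratio was 0.40. The sign held in 7 probe sets (Alb, the 3 of Ttr, Ahsg, Fetub and the dimmer one of Afm) and turned 7 times in the other 4: in Rbp4 under quantile normalization (−0.13), loess (−0.03) and the hybridization controls (−0.27), in Ambp under quantile normalization (−0.06) and those controls (−0.17), in the brighter Afm probe set under those controls (−0.18), and in Azgp1 under median centring (0.0038). Other floors, an added floor and the dropping of shared sequence could not turn the sign of any carrier probe set, so only the scalings bear on it. The median over carrier genes was 0.09 from the deposited signals, 0.02 under loess, 0.04 with the mean of a gene's probe sets and −0.09 under quantile normalization. The number of carrier probe sets above 0 was 5 from the deposited signals, 3 under quantile normalization, 2 without probe sets of shared sequence, which leaves fewer of them, and 2 with the hybridization controls. The controls also gave a median of −0.32 over the carrier probe sets and −0.23 over the carrier genes, −0.11 over other plasma proteins, 0.52 over positive acute phase genes, −0.17 over regulators with 1 at least 2-fold higher, and −0.18 over cargo and uptake genes with 0 at least 2-fold higher and 1 lower. With the floor at the 75th percentile, 0 regulators were at least 2-fold higher and 0 lower, and 0 cargo genes higher; with log2(value + floor) these counts were 1, 0 and 0. The higher floor leaves genes below it on 1 array uncounted, and the added floor shrinks ratios of dim genes by construction. For the counts under these alternatives, the share of all measured genes was not computed. Apart from these controls, which lower every log2 ratio by 0.31, no list median or carrier ratio moved by as much as 0.30, the SD of a single probe set over all measured genes with 2 of them. No paired analysis was possible because each diet has 1 array. Whether saturation narrows the ratios of the brightest carriers was not tested.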

Other observations

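The secretory pathway through which all carriers pass was read from 18 genes of protein translocation and folding, all measured. Of these 10 had ratios above 0 and 8 below, beside 48.3% of all measured probe sets above 0, with a median log2 ratio of 0.05. Sec61a1, the channel subunit of the translocon, was at 0.10, with −0.03 to 0.88 in its other probe sets. Hspa5, the main chaperone of the endoplasmic reticulum, had 1738.4 on the orujo array and 2382.7 on the olive array (−0.45, and −0.48 in its other probe set), while the folding enzyme genes P4hb and Pdia6 were at 0.09 and 0.15. Pdia4, a disulfide isomerase, was lowest and had 255.7 on orujo and 686.8 on olive, 2.69-fold lower, while its second probe set gave −0.19. Ssr4, a translocon-associated protein, was highest at 0.54, with −0.34 and −0.12 in its other probe sets.

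Markers of other liver cells were read for the same arrays. Macrophage markers had a median of 0.16 (6 of 6 measured), between Cd68 at −0.36 and Marco at 0.35. Neutrophil markers had a median of −0.07 over 4 measured genes, between Mpo at −0.40 and Elane at 0.34; S100a8, with 60.7 on orujo and 17.2 on olive, and S100a9, with 49.2 on orujo and 20.8 on olive, passed the floor only on the orujo array. Of 4 cholangiocyte markers, Krt19 alone passed the floor, on the olive array, at 15.9 on orujo and 42.1 on olive.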
